A study of Rattus norvegicus with 88 samples.

Results

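Gapdh, Actb, Tbp and Hprt1 are 4 genes commonly used as internal references when RNA levels are compared between brain samples. They were taken from the table of orbitofrontal cortex RNA-Seq values by their Ensembl identifiers, ENSRNOG00000018630, ENSRNOG00000034254, ENSRNOG00000001489 and ENSRNOG00000048561. All 4 had a row among the 17123 genes of the table. The table gives no gene symbols, so the symbols used here are those of the working list of identifiers, and no table used here pairs them. Hprt1 and Actb below stand for the rows listed under those names, and whether these rows hold those whole genes was not checked.

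The animals were heterogeneous stock (HS) rats, an outbred stock bred from several inbred founder strains, and none had received a behavioral or drug treatment. Each library came from polyA RNA of the orbitofrontal cortex of 1 rat, both hemispheres together, so the spread described below lies between rats. There were 80 libraries, 41 from males and 39 from females, in rat batches 2 (11 males and 4 females), 3 (10 and 12), 4 (12 and 14), 5 (1 female) and 6 (8 and 8). The labels listed 88 samples and marked 8 as removed; 0 of these had a column, and they were not analysed here. Rat batch is a number in the labels, which do not say what it groups, and ages are not given in the labels used here. The methods of the study give a mean age for males and for females over all 88 rats, and not by batch.

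A reference gene is used as a ruler: the level of a gene of interest is divided by that of the reference, and any change of the reference itself is passed on to the quotient. Such genes are drawn from basic cell functions. Gapdh encodes glyceraldehyde-3-phosphate dehydrogenase, an enzyme of glycolysis, the main route of glucose breakdown in brain. Actb encodes beta-actin, a building block of the actin filaments that shape cells and the spines of neurons. Tbp encodes the TATA-binding protein, which takes part in starting transcription by all nuclear RNA polymerases. Hprt1 encodes hypoxanthine phosphoribosyltransferase, which returns purine bases to the nucleotide pool and is especially active in brain.

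The core promoters of 3 of the 4 genes were matched by symbol in RefSeq (assembly GRCr8, not the Rnor_6.0 build named in the processing notes of the submitters). They are shown because the first step of expression of a gene takes place there, and because the protein encoded by Tbp binds the TATA box. Each line gives the 100 bases before the start, 5′ to 3′ on the strand of the gene, with TATAAA and GGGCGG on either strand in capitals. The regions are chr4:159652468-159652567 (minus strand) for Gapdh, chr1:65136608-65136707 (plus strand) for Tbp and chrX:137655644-137655743 (plus strand) for Hprt1.
Gapdh: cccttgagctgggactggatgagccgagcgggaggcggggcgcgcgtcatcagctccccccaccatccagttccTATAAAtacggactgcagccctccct
Tbp: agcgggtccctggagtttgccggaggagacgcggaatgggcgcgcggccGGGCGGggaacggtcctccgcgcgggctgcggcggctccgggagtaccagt
Hprt1: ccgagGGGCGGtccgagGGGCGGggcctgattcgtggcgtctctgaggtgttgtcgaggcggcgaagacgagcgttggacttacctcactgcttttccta
Gapdh held 1 TATAAA, from 26 to 21 bases before the start, a motif found in 5.78% of 33469 RefSeq windows of the same length. Tbp held 1 GGGCGG and Hprt1 held 2, where 21.6% of all windows held at least 1 and 7.52% at least 2. The GC content was 65% for Gapdh, 76% for Tbp and 64% for Hprt1, beside a median of 54% over all windows. These matches describe the letters of the window and nothing of its use.

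The values analysed are normalized counts, that is, estimated read counts per gene after an upper quartile adjustment by the authors, and log2 values are log2(normalized count + 1). Depth, recovered from the steps between values, lay between 5.67 and 25.6 M reads in a library (M, mega). It averaged from 16 to 19.9 M in batches 2, 3, 4 and 6. A female library of batch 3 listed 1628 genes at 0, more than any other library. Levels are compared between libraries for each gene and not between genes, since no gene lengths were used. Gapdh and Actb are known to have processed pseudogenes and Actb a close relative in Actg1, and how the authors' estimation shared reads among such copies was not tested.

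Over the 80 libraries as deposited, Tbp had the lowest SD of the 4 rows and the row listed as Hprt1 the highest. After quantile normalization the SD of Actb (0.12) lay below that of Tbp (0.13). The Tbp count was at least 176, with a median of 214 and a highest value of 259, a 1.47-fold range. Its log2 level was 7.74 ± 0.13 (SD, n = 80) and the coefficient of variation (CV) of the normalized count was 8.92%. The Gapdh count ran from 21604 through a median of 26604 to 33619, a 1.56-fold range, with a log2 level of 14.71 ± 0.15 and a CV of 10.4%. The Actb count ran from 11449 through 16092 to 20428, a 1.78-fold range, with a log2 level of 13.97 ± 0.18 and a CV of 12.2%. The row listed as Hprt1 ran from 88 through 240.5 to 548, a 6.23-fold range, with a log2 level of 7.95 ± 0.53 and a CV of 35.3%. The lowest Hprt1 count came from a female and the highest from a male of the same rat batch, batch 6.

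**Figure D1:**
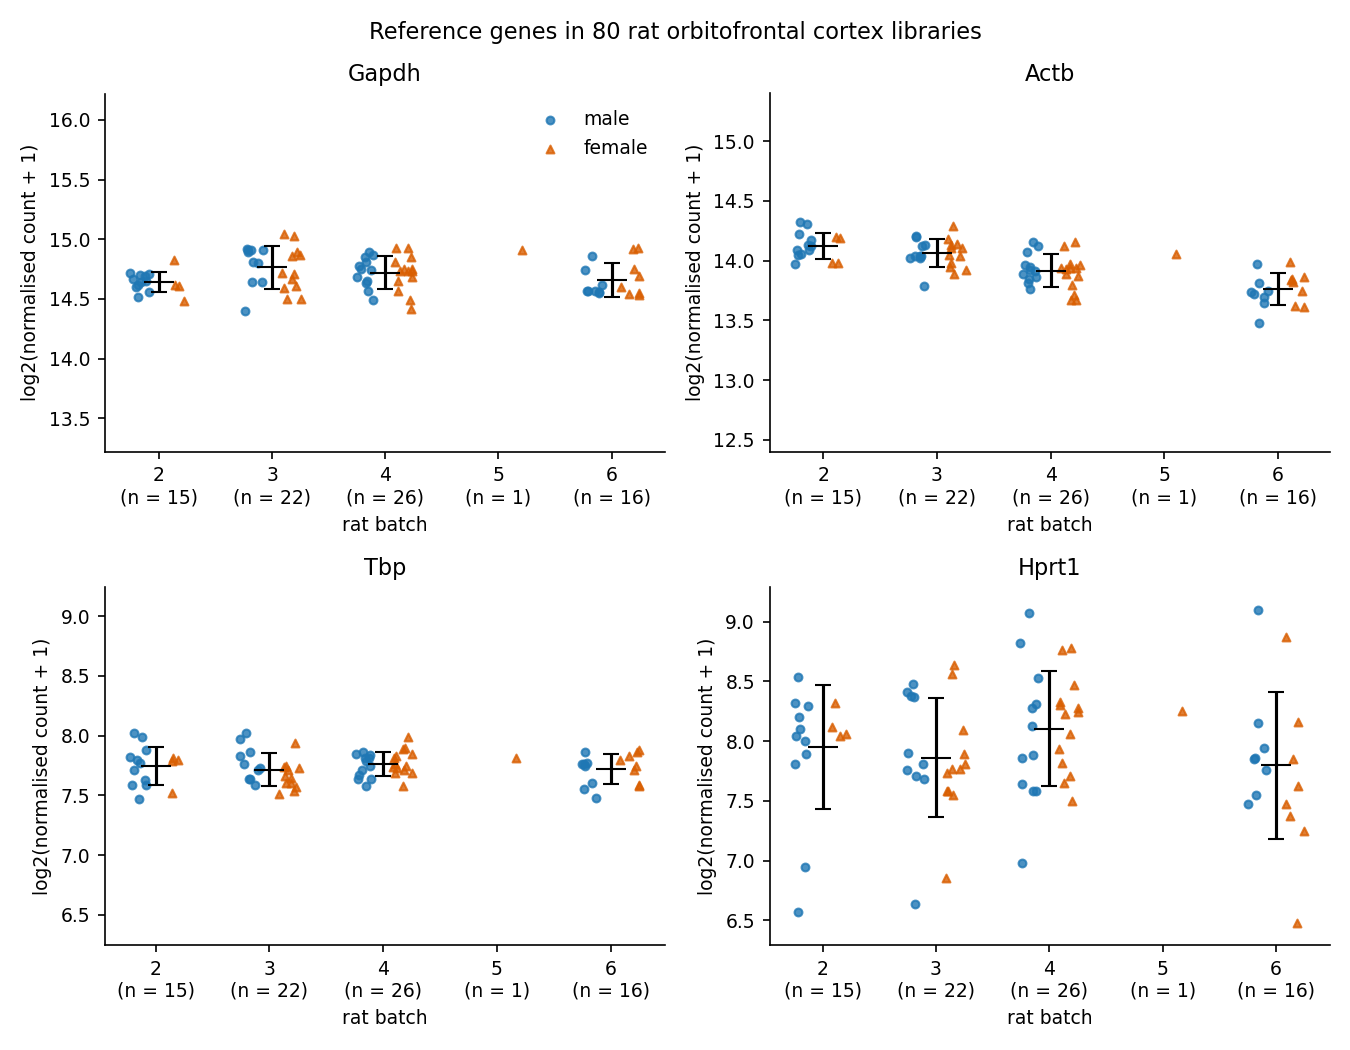
Log2(normalized count + 1) of the 4 genes in each of the 80 libraries, by rat batch on the horizontal axis, with circles for males and triangles for females. Bars give the mean and SD of a batch, all panels span 3 log2 units, and batch 5 is 1 library. The row listed as Hprt1 covers 6.48 to 9.10 and Tbp 7.47 to 8.02, and Actb is lowest in batch 6.

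Stability was judged against genes of similar level, because the SD of a log2 value falls as the count rises. For each gene the SD over the 80 libraries was ranked among the 500 genes nearest to it in mean log2 value, the 4 members left out. Of the 500 neighbours of Tbp, 0 had a lower SD, and their median was 0.25 beside 0.13 for Tbp. For Gapdh 246 of 500 (49.2%) had a lower SD, with a median of 0.15, and this share was 62.4% after quantile normalization and 70.6% with the median absolute deviation. For Actb 359 of 500 (71.8%) had a lower SD, but 276 (55.2%) with libraries rescaled to equal totals and 180 (36%) after quantile normalization. For Hprt1 473 of 500 (94.6%) had a lower SD, and the median of its neighbours was 0.23. The ranks are descriptions without a test. There are few genes at the level of Gapdh, so its neighbours spanned means from 12.46 to 16.90.

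Once sex and rat batch were taken out, the residual SD was 0.130 for Tbp, with 1 of 500 neighbours lower. Actb had a slightly lower residual SD of 0.126, with 292 neighbours lower, Gapdh had 0.143 with 371 lower and Hprt1 0.527 with 485 lower. The share of lower neighbours for Actb moved from 58.4% to 46.6% with equal totals and 37.2% after quantile normalization. For Gapdh it moved from 74.2% to 66.6% and 60.6%. Actb had a larger SD than Gapdh over all libraries and a smaller residual SD. This order depended on the processing, since with the column run (described below) also removed the residual SD was 0.119 for Gapdh and 0.123 for Actb, and after quantile normalization the total SD was already smaller for Actb. The means of batches 2, 3, 4 and 6 spanned 0.048 log2 units for Tbp, a range below that of all but 7 of its 500 neighbours. The span was 0.12 for Gapdh (79 neighbours lower), 0.31 for Hprt1 (280 lower) and 0.36 for Actb (406 lower). After quantile normalization Gapdh ranked above Actb, with 68% and 51% of neighbours lower.

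**Figure D2:**
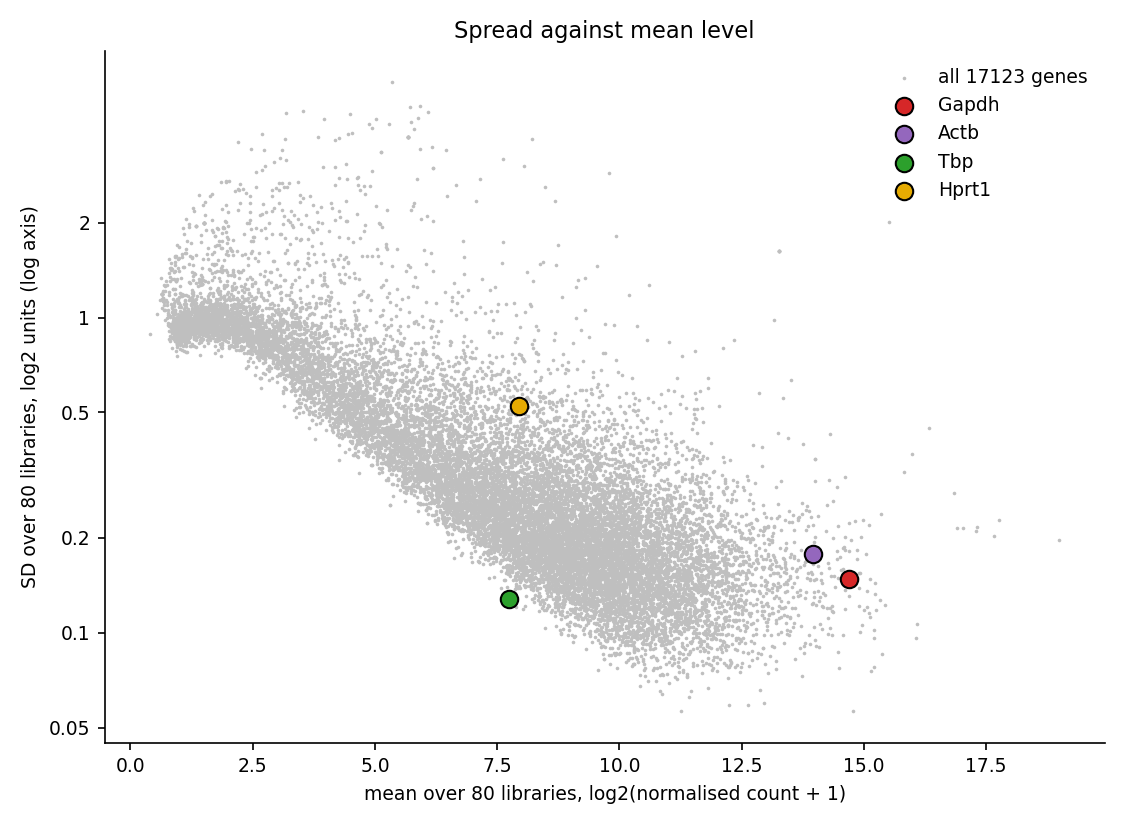
SD over the 80 libraries (log axis, log2 units) against the mean log2(normalized count + 1), with 1 grey point for each of the 17123 genes and a large point for each reference gene. Tbp, at an SD of 0.13, lies at the lower edge of the genes of its level. The row listed as Hprt1, at 0.53, lies near the upper edge.

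The counting of reads sets a floor under these SDs. Tbp rested on 74 to 311 recovered reads per library, for which counting alone gives an SD of 0.10 on the log2 scale, or 67.3% of its variance. Its SD was 1.22 times that floor, where the median of its neighbours was 2.34 times and 0 of 500 were lower. Hprt1 rested on a similar number of reads, 49 to 510, and counting made up 3.66% of its variance. Its SD was 5.22 times the floor, and 474 of 500 neighbours had a lower ratio. Gapdh, at 7615 to 39105 reads, and Actb, at 5802 to 21668, had counting shares of 0.399% and 0.455%. These floors cover counting error only, and reads without molecular identifiers are not independent molecules.

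Males and females were then compared, with rat batch in the model. The test called 20 of 17123 genes (percent called 0.117), and 0 of the 4 reference genes were among them. The male minus female difference was 0.0024 log2 units for Gapdh, with a 95% interval from -0.063 to 0.068 (adjusted p = 0.997). For Actb it was 0.0071, from -0.051 to 0.065 (adjusted p = 0.985). For Tbp it was 0.011, from -0.052 to 0.074 (adjusted p = 0.979). The interval of Hprt1 was wider, from -0.21 to 0.26 around 0.027 (adjusted p = 0.987), so a difference of that size between the sexes was not excluded for it. The single library of batch 5 carries no information on sex in this model. The effect of sex was also compared between batches 2, 3, 4 and 6 as an interaction. With limma 0 genes passed (percent called 0.00), against 451 genes at an unadjusted p under 0.05, and the unadjusted p of the 4 members lay between 0.208 for Tbp and 0.786 for Gapdh.

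Rat batch went with a difference in the row listed as Actb. Whether this row shares reads with another row, taken up below, was not tested. The Actb count was 16090 at the lowest, 17764 at the median and 20428 at the highest in batch 2. In batch 3 it was 14134, 16889.5 and 20030. The values were 13038, 15552.5 and 18364 in batch 4, 17024 in the single library of batch 5, and 11449, 13763.5 and 16217 in batch 6. The levels were thus highest in batch 2 and lowest in batch 6, and these groups overlapped only at their edges. In tissue RNA, a change in the share of a cell type and a change of RNA per cell cannot be told apart. Across batches 2, 3, 4 and 6 the moderated F test called 11078 genes (percent called 64.7). Actb was 1 of them (adjusted p = 2.90e-11), and it was the only one of the 4 members. A share of 1 in 4 is below that background, but 4 genes are too few to tell the shares apart, and no test was made. With equal totals, quantile normalization or array weights 2 members were called.

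In pairs, Actb was called in 5 of 6 comparisons. Batch 6 minus batch 2 came to -0.36 log2 units (95% interval -0.45 to -0.27, adjusted p = 1.82e-10), where 53.8% of all genes were called. Batch 6 minus batch 3 was -0.30 (-0.39 to -0.22, adjusted p = 3.45e-09, percent called 50.9). Batch 6 minus batch 4 was -0.16 (-0.24 to -0.078, adjusted p = 0.00456, percent called 13.6). Batch 4 minus batch 2 was -0.21 (-0.29 to -0.12, adjusted p = 2.06e-05, percent called 48.6) and batch 4 minus batch 3 was -0.15 (-0.22 to -0.073, adjusted p = 0.000695, percent called 42.9). In each of these the higher-numbered batch had the lower level. The call of batch 4 minus batch 3 was lost with equal totals (adjusted p = 0.0595) and quantile normalization (adjusted p = 0.20), and the difference turned to 0.016 with the column run in the model. Batch 4 minus batch 2 lost its call with quantile normalization (adjusted p = 0.0526). Batch 3 minus batch 2, the remaining pair, was -0.061 (-0.15 to 0.024, adjusted p = 0.406, percent called 9.79).

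**Figure D3:**
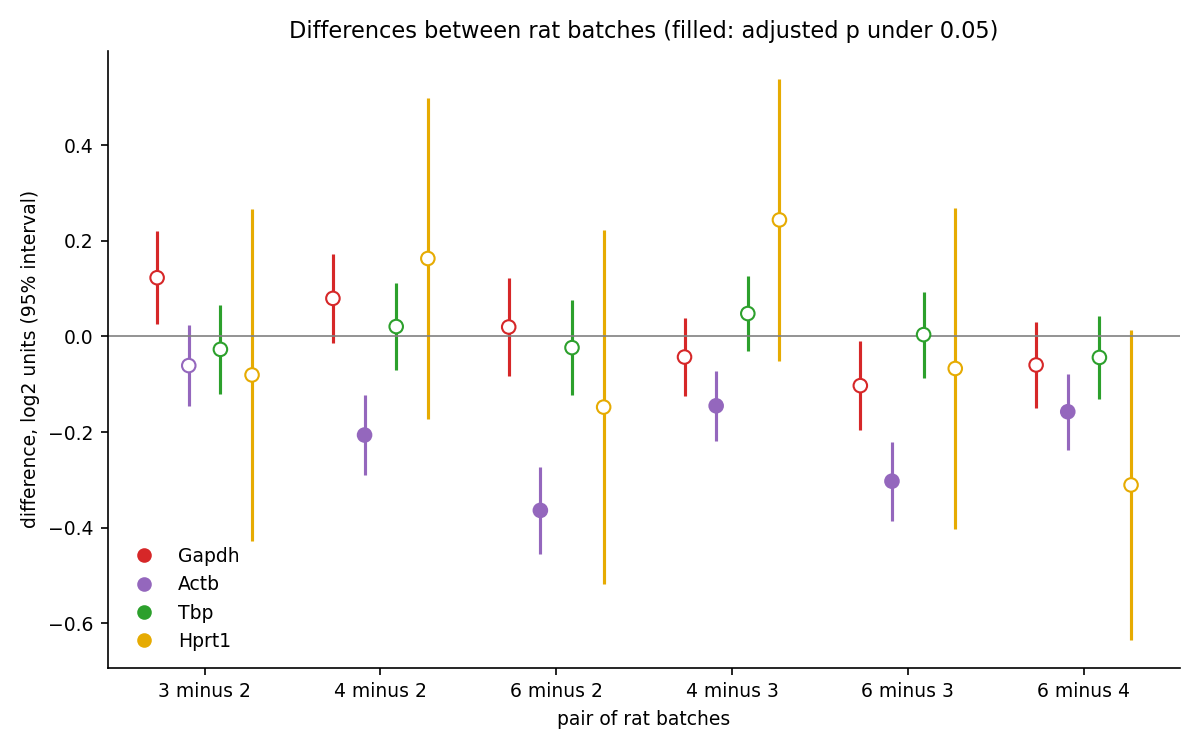
Difference between the means of each pair of rat batches, in log2 units after sex, for the 4 genes, with 95% intervals as vertical lines. Filled points passed an adjusted p of 0.05: these are 5 of the 6 Actb points, from -0.15 to -0.36, and none of the other genes.

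Gapdh had an adjusted p of 0.0676 across batches and passed in 0 of the 6 pairs. Its count was 22893, 25550 and 29066 at the lowest, median and highest of batch 2, and 21604, 28610.5 and 33619 in batch 3. Batch 4 had 21974, 27302 and 31177, batch 5 had 30686, and batch 6 had 23671, 24598 and 31277. The ranges of batches 2, 3, 4 and 6 overlapped, the single library of batch 5 lay above all of batch 2, and batch 3 held both the lowest and the highest library. The largest of its pair differences was batch 3 above batch 2 by 0.12 (95% interval 0.026 to 0.22, adjusted p = 0.0951). The result for Gapdh depended on how libraries were put on one scale, since after quantile normalization its batch means spanned 0.27 and it was called (adjusted p = 1.03e-07).

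Tbp showed the smallest differences between batches. Its lowest, median and highest log2 levels were 7.47, 7.79 and 8.02 in batch 2 and 7.51, 7.71 and 8.02 in batch 3. They were 7.58, 7.76 and 7.99 in batch 4 and 7.48, 7.76 and 7.88 in batch 6, with 7.81 in batch 5. All these ranges overlapped. Its adjusted p across batches was 0.666, and the 95% intervals of its 6 pair differences lay between -0.13 and 0.13. With libraries rescaled to equal totals, its batch means spanned 0.12 and the test called it (adjusted p = 0.0484).

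Hprt1 was not called across batches (adjusted p = 0.271), with intervals that reached from -0.63 to 0.54. Its counts were 94, 266 and 370 in batch 2, 99, 220 and 399 in batch 3, 125, 289.5 and 537 in batch 4, and 88, 223 and 548 in batch 6, with 304 in batch 5. All these ranges overlapped, and batch 6 held both ends of the whole range. Batches accounted for 5.42% of the variance of its log2 level, beside 52.9% for Actb, 10.2% for Gapdh and 2.65% for Tbp.

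The columns of the table fall into 3 runs of ascending rat identifiers, and these runs partly follow rat batch: run 1 holds 14 libraries of batch 2 and 7 of batch 3, run 2 holds 1 and 12, and run 3 holds 3 of batch 3 and every library of batches 4, 5 and 6. What the runs stand for is not stated. Batch 3 is spread over all 3, so its libraries of run 2 and run 1 were compared, with sex in the model, a comparison chosen after the data were seen. Gapdh was higher in run 2, where the 12 libraries had counts from 26758 through a median of 30355 to 33619, than in run 1, where the 7 libraries had 21604 through 24585 to 26112. The groups did not overlap, as held for 30 genes of the table (percent called 0.175). The difference was 0.33 log2 units (95% interval 0.23 to 0.44, adjusted p = 0.00409), and 172 genes were called (percent called 1.00). The 3 libraries of run 3 had Gapdh counts of 25443, 26938 and 30859.

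The other reference genes were not called between runs 2 and 1 of batch 3. Actb differed by 0.026 (95% interval -0.079 to 0.13), Tbp by 0.020 (-0.14 to 0.18) and Hprt1 by 0.20 (-0.26 to 0.67). The 3 libraries of batch 3 in run 3 had Actb counts of 14134, 15148 and 16825. The Actb medians were 16592 in run 1 and 17702 in run 2 of batch 3, and 15552.5 in batch 4, which lies in run 3. Run 3 was not tested against the other runs inside batch 3. With the column run added to the batch model, 3178 genes were called (percent called 18.6) and Actb stayed past the threshold (adjusted p = 0.0145). Of its pairs only batch 6 minus batch 4 did (-0.16, adjusted p = 0.00331), where 2578 of 17123 genes were called. Batches 4 and 6 lie in the same run, and inside it alone they differed in Actb by 0.16 (adjusted p = 0.0119, percent called 13.7). Batches 2 and 3 were compared inside run 1 alone, where they differed in Actb by 0.052 (adjusted p = 0.692, percent called 1.94). Batches 4 and 6 share a run with 3 libraries of batch 3 and 0 of batch 2, so for batch 2 against batch 4 or 6 no comparison inside a run could be made.

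**Figure D4:**
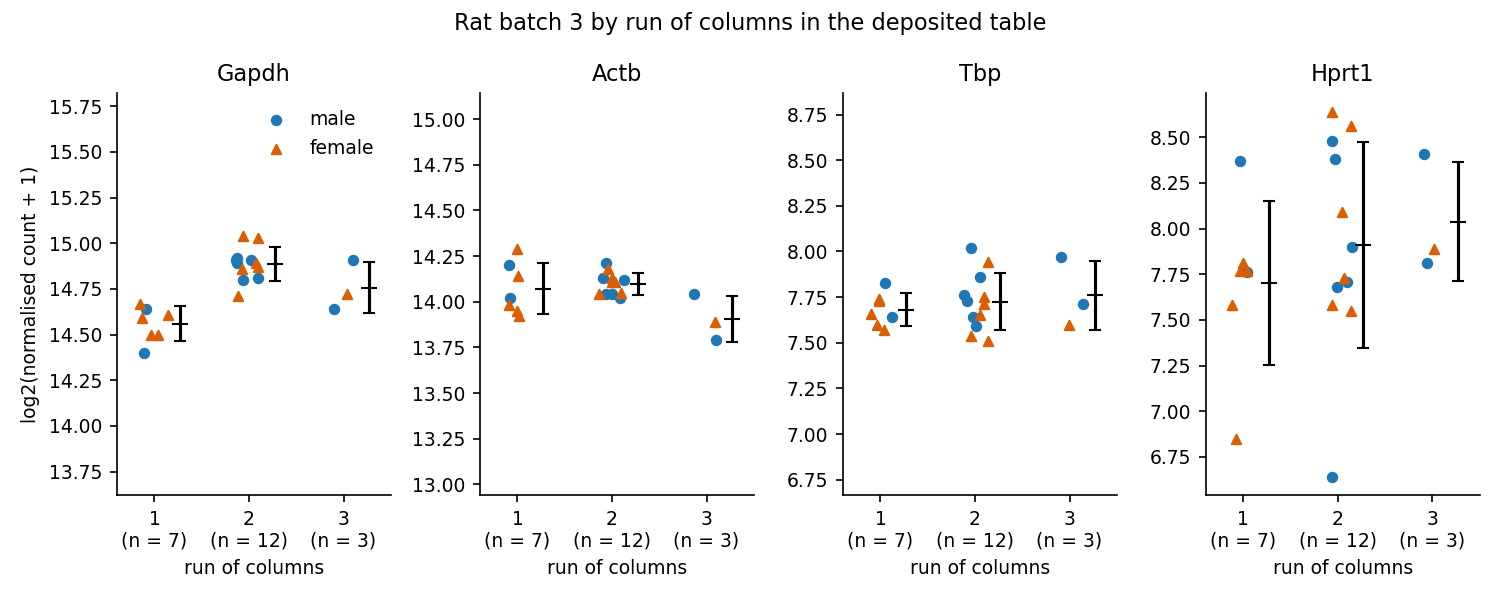
Log2(normalized count + 1) of the 4 genes in the 22 libraries of rat batch 3, by the run of columns in the deposited table, with circles for males, triangles for females and bars for the mean and SD of a run. Gapdh lies between 14.40 and 14.67 in run 1 and between 14.71 and 15.04 in run 2, while the runs overlap for the other 3 genes.

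Reference genes are often used in pairs, and the SD over libraries of the log2 ratio of 2 genes shows how well they keep step. It was 0.18 for Gapdh to Actb, 0.18 for Gapdh to Tbp and 0.22 for Actb to Tbp. It was 0.51 for Gapdh to Hprt1, 0.54 for Actb to Hprt1 and 0.56 for Tbp to Hprt1, a ratio that covered a 7.41-fold range. The mean of the 3 SDs of a gene, the M value used to rank reference genes (lower is steadier), was 0.292 for Gapdh, 0.313 for Actb, 0.320 for Tbp and 0.537 for Hprt1. The first 3 values of M lay close together, and no test was made between them. Each of them includes the SD of the ratio to the row listed as Hprt1, the largest of its 3 SDs. Counting alone gives Tbp an SD of 0.10, which enters each of its ratios.

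Gapdh and Actb also varied together within batches. After sex and batch were removed, their residuals had a Pearson r of 0.532 and a Spearman rho of 0.539 over 80 libraries (100000 permutations within batch, two-sided, adjusted p = 0.0001 over 10 relations). The unadjusted permutation p was 1e-05 for both, the smallest that this number of permutations can give. Without the 2 libraries farthest from the median of Gapdh, r was 0.567. Within batches 2, 3, 4 and 6 it was 0.372, 0.356, 0.675 and 0.704, and with the column run removed as well it was 0.679. All libraries share 1 scaling step, which acts on both genes.

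No other pair passed the threshold. Gapdh and Hprt1 had an r of 0.244 and a rho of 0.25 (permutation adjusted p = 0.160 and 0.102), and in batches 2, 3, 4 and 6 alone r was 0.235, 0.142, 0.0651 and 0.770. Tbp and Hprt1 had an r of -0.197 and a rho of -0.137 (permutation adjusted p = 0.208 and 0.328). Actb and Hprt1, close to 0 over all libraries, had an r of 0.240, -0.194, -0.0383 and 0.574 in the same batches. Gapdh and Tbp had an r of 0.119, Actb and Hprt1 0.0806, and Actb and Tbp 0.0429, with permutation adjusted p of 0.412, 0.544 and 0.706. With log2 depth, r was -0.109 for Gapdh, -0.179 for Actb, -0.192 for Tbp and -0.190 for Hprt1, and the permutation adjusted p lay between 0.208 and 0.412.

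For each member, the gene with the most similar residuals was sought among the 14799 others whose mean log2 value reached 3. For Gapdh it was ENSRNOG00000042271 (r = 0.847 over 80 libraries), and 629 genes had an r over 0.5. For Actb it was ENSRNOG00000021808 (r = 0.808), and 615 genes had an r over 0.5. For Tbp the closest was ENSRNOG00000006623 (r = 0.462), and 0 genes had an r over 0.5. For Hprt1 it was ENSRNOG00000017100 (r = 0.549), and 2 genes had an r over 0.5. Gapdh and Actb thus had many genes above this value, and Tbp and Hprt1 few or none. Counting made up 67.3% of the variance of Tbp, which limits the r it can reach, beside 0.399% for Gapdh and 0.455% for Actb. The numbers usual for genes of a similar level were not computed, so these numbers cannot be read as traits of the members. These correlations are descriptions, and the libraries share depth and scaling.

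Genes with an r under -0.5 numbered 495 for Gapdh, 440 for Actb, 0 for Tbp and 1 for Hprt1. The most opposite gene was ENSRNOG00000030572 for Gapdh (r = -0.762) and ENSRNOG00000054204 for Actb (r = -0.720, rho = -0.687). Before sex and batch were removed, r was -0.847 for Actb. The log2 of the summed counts of that Actb pair had an SD of 0.065, where the Actb row alone had 0.18 and the other 0.24. For the Hprt1 row the 1 gene was ENSRNOG00000031367 (r = -0.553, rho = -0.485). These genes were singled out after their values were seen. The count of ENSRNOG00000031367 was 1359 at the lowest, 2003 at the median and 2733 at the highest. The log2 of its counts summed with those of the Hprt1 row had an SD of 0.15, where the Hprt1 row alone had 0.53. This summed count is made up mostly of the more abundant row, but its SD of 0.15 lay below the 0.19 of that row alone. Estimated counts can be split between similar sequences. Whether the Hprt1 row or the Actb row shares reads with its most opposite row was not tested. Nor was it checked that the rows listed as Hprt1 and Actb hold those whole genes, or that their opposite rows belong to different genes. What is said of Hprt1 and Actb here therefore holds for these rows and not with certainty for the genes. That includes their spread, the batch differences of Actb and the effect of dividing by either.

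The last question was what division by each reference gene did to the rest of the table. As deposited, the median residual SD of the 17123 genes after sex and batch was 0.231. It was 0.267 after division by Tbp, 0.270 after division by Actb and 0.280 after division by Gapdh. Division by Hprt1 raised it to 0.577. The mean of all 4 genes gave 0.280, and the mean of Gapdh, Actb and Tbp, added after the data were seen, gave 0.255. In all 6 cases the median spread was larger than under the deposited normalization.

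The same divisions changed how many genes differed between groups. Rat batch called 11078 genes as deposited, 12907 after division by Actb, 10529 by Gapdh and 9678 by Tbp. It called 2990 after division by Hprt1, and 10557 and 11044 with the means of 4 and of 3 genes. Sex called 20 genes as deposited, 17 after division by Actb, 15 by Tbp, 14 by Gapdh and 9 by Hprt1, and 14 and 17 with the means of 4 and of 3. The number of sex calls was thus lower than as deposited for each reference gene.

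**Figure D5:**
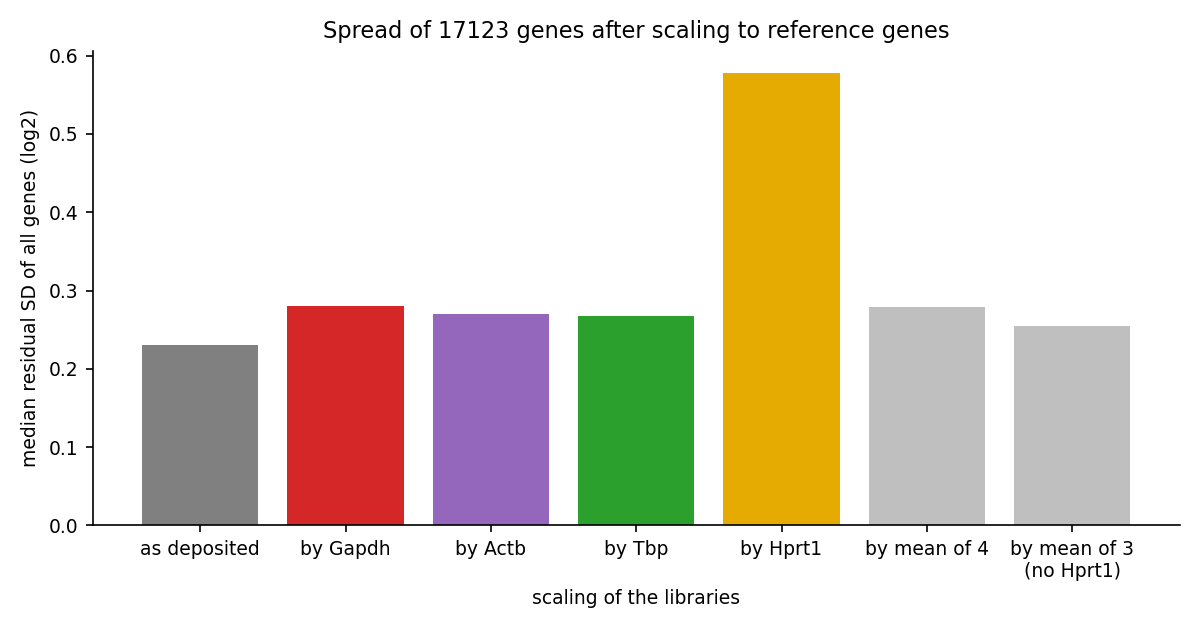
Median over 17123 genes of the residual SD after sex and rat batch, in log2 units from 0, for the deposited values and after division of each library by 1 reference gene or by the mean of 4 or of 3. The deposited values give 0.231, the lowest bar, and division by the row listed as Hprt1 gives 0.577, the highest.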

How the data were processed

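PolyA RNA was sequenced by the authors as single-end reads, trimmed with cutadapt and quantified against the Ensembl rat transcriptome with RSEM. The deposited values are log2 of estimated counts after the authors applied an upper quartile adjustment in DESeq2 and added 1, as their methods and the labels state. The labels name Rnor_6.0. On the linear scale every deposited value was a whole number (largest relative departure 3.47e-06), and depth was recovered from their steps, which were multiples for 99.6 to 100% of values up to 300 in each library. All 80 columns matched a sample title.

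Tests used limma 3.58.1 in R 4.3.3 (lmFit, eBayes with trend) on the deposited values of all 17123 genes. The sex model had batch as a factor and the batch model had sex. Adjusted p-values follow Benjamini-Hochberg over all genes, with a threshold of 0.05. The scripts were tested on simulated data. Spreads, ratios and permutations used Python 3.11.15, NumPy 2.4.6, pandas 2.3.3 and SciPy 1.17.1, and figures Matplotlib 3.10.9. The methods of the study describe no test by sex or by batch.

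The members and lists were chosen with earlier results of these data known. The genes named were the 4 members and, for each, the most similar gene, and for Gapdh, Actb and Hprt1 also the most opposite gene. Lists of other reference genes, pathway genes and cell type markers were not applied, because the RefSeq gene table paired 0 identifiers with symbols. The tissue label could therefore not be checked against markers.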

Additional observations from a re-analysis of the deposited data

Results flagged for a closer look

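Each of the 4 genes was examined for single libraries far from the rest of their group, in the 4 groups of 1 sex and 1 batch with 4 to 10 libraries, 16 groups in all. Chance marks about 1 in 20 such groups, and 4 were marked. Among the 10 males of batch 3, the lowest Actb level was 13.79 on the log2 scale, with the next at 14.02. Among the 4 females of batch 2, the lowest Tbp level was 7.52, with the next at 7.79. Among the 10 males of batch 3, the lowest Hprt1 level was 6.64, with the next at 7.68. Among the 8 males of batch 6, the highest Hprt1 level was 9.10, with the next at 8.15. What sets these libraries apart was not tested.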

How the results depend on the processing

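The places of Tbp below and of Hprt1 above most of their neighbours held under every scaling, pseudocount and neighbour number tried, with 0 to 2 of 500 neighbours below the total SD of Tbp under the other scalings and 4 when the median absolute deviation was used. The total and residual SDs, the SDs of the ratios and the Gapdh and Actb relation kept within 1.5 times or on their side of the threshold in all alternatives. The ranks of Gapdh and Actb among their neighbours moved more. With the column run removed, 57% of the neighbours of Gapdh and 62.2% of those of Actb had a lower residual SD. The spans of batch means were more sensitive. With quantile normalization they were 0.27 for Gapdh, 0.20 for Actb and 0.082 for Tbp, and with equal totals 0.12 for Tbp. The cause was not tested. Equal totals moved the median gene of a library by -0.18 to 0.082 log2 units. No paired analysis was possible because no number in the labels links a male to a female or a rat of one batch to a rat of another.

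Rat batch called 2 members with equal totals (Tbp added), quantile normalization and array weights (Gapdh added, adjusted p = 0.0111 with weights), where 64.5%, 64.2% and 67.5% of all genes were called, and 0 with 20 principal components and in column run 1 alone (batches 2 and 3). Over all genes it called 3178 with the column run in the model, 1 with 20 components, 6156 in females only, 2352 in run 3 alone (batches 4 and 6) and 333 in run 1 alone. Over the 24 tests of a member in a pair of batches there were 5 calls, 8 with quantile normalization and 1 with the column run. Over all genes and pairs, 36.6%, 36.2% and 6.03% of tests were called.

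No alternative called a member by sex. Over all genes sex called 34 with equal totals, 31 with array weights, 10 with 20 components, 9 in batch 3, 10 in batch 4, 10 in batch 6, 13 without batch 4 and 9 in run 2. The sex by batch interaction called 2 genes with a pseudocount of 10. Run 2 minus run 1 inside batch 3 called 318 genes with equal totals and 295 when the library with the most zeros was left out, and Gapdh was called in all 5 alternatives (adjusted p up to 0.0285).

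Sex differences that were near 0 in the main model changed sign in 30 cases, none of them called. For Gapdh the sex difference became -0.0093 with equal totals, -0.0011 with quantile normalization, -0.0035 with depth, -0.00080 with the run and -0.018 with no batch term. It was -0.061 in batch 6, -0.011 without batch 3, -0.0022 without batch 4, -0.025 in run 2 and -0.012 in run 3. For Actb it was -0.0046 with equal totals, -0.0013 with depth, -0.041 with 20 components, -0.0040 in batch 3, -0.062 in batch 6, -0.00095 without batch 2, -0.0099 without batch 4 and -0.0095 in run 2. For Tbp it was -0.00079 with equal totals, -0.035 in batch 4, -0.059 in batch 6, -0.030 without batch 3 and -0.027 in run 3. For Hprt1 it was -0.010 with depth, -0.96 with 20 components, -0.25 in batch 2, -0.091 in batch 4, -0.0011 without batch 3, -0.054 without batch 6 and -0.23 in run 2. The Hprt1 value with 20 components is not near 0, but its standard error was 0.50 (limma adjusted p = 0.643).

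Among the pairs of batches, 1 called value turned: Actb, batch 4 minus batch 3, was 0.016 with the column run. With that term Gapdh turned to -0.050 in 3 minus 2, -0.085 in 4 minus 2 and -0.14 in 6 minus 2, Tbp to -0.056 in 4 minus 2 and -0.040 in 6 minus 3, and Hprt1 to -0.18 in 4 minus 2. With quantile normalization Gapdh turned to 0.11 in both 4 minus 3 (adjusted p = 0.0107) and 6 minus 3 (adjusted p = 0.0186), where the value was 0.113, and to 0.0024 in 6 minus 4, while Tbp turned to -0.021 in 4 minus 2 and -0.041 in 6 minus 3. With equal totals Gapdh turned to 0.025 in 4 minus 3, Tbp to 0.037 in 6 minus 2 and Hprt1 to 0.023 in 6 minus 3. Between the runs inside batch 3, Actb turned to -0.027 and Tbp to -0.032 with equal totals, and Tbp to -0.012 without the library with the most zeros. Among the correlations, Actb and Tbp turned to -0.0513 with equal totals, and depth and Gapdh to 0.0148 with equal totals and 0.0446 with the column run.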
